A study of Homo sapiens with 4 samples.

Results

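The genes described here encode the human proteasome: the 20S core particle, its interferon-inducible catalytic subunits, the 19S regulatory particle, the alternative activators, the inhibitor PSMF1 and the assembly factors. They were chosen by symbol (PSMA to PSMG followed by a number, plus POMP, ADRM1 and SEM1), which found 51 of 60766 features, each with 1 row. RNA was sequenced from HCT116, an established human colon carcinoma line kept in RPMI1640 with serum, in 2 groups. The control group (genotype label control, sample titles CTR) and the ARID1A knockdown group (titles shARID1A, a short hairpin RNA against the SWI/SNF subunit gene ARID1A) held 2 libraries each. The stated aim was to relate ARID1A to immune functions. The labels give neither the control construct, nor the duration of the knockdown, nor whether the cells were a clone or a pool. Whether replicates came from separate cultures is not stated, so p-values measure the spread between these libraries, which may be technical.

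The proteasome degrades proteins tagged with ubiquitin. Its core is a stack of rings of alpha and beta subunits, in which PSMB5, PSMB6 and PSMB7 carry the cutting activities. The 19S particle on its ends binds ubiquitin chains, removes them and unfolds the substrate with a ring of ATPases. Under interferon, PSMB8, PSMB9 and PSMB10 replace PSMB5, PSMB6 and PSMB7 in newly made cores, and the PA28 ring of PSME1 and PSME2 caps them. This immunoproteasome alters the peptides offered on MHC class I. The genes of the standard particle can be raised together by the transcription factor NFE2L1, which binds antioxidant-type elements in their promoters.

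Promoter sequences come first, since the inducible genes are known for interferon elements and the standard ones for antioxidant elements. RefSeq promoters on GRCh38.p14, from 250 bases before to 50 after a transcript start, were matched for 45 of the 51 genes by symbol. Both strands were searched for the interferon response element (GAAA, any 2 bases, GAAA), the STAT site TTCNNNGAA, the antioxidant core TGACNNNGC and CCAAT. Matches to different motifs were allowed to overlap. The interferon element was found in 7 of the 45 genes (15.6%), against 4.38% of all 27305 genes with a promoter and 3.75% of the 9868 of them tested below. In 5 of the 7 its letters were identical, and the site lay close to the start. These stretches are shown because 4 of the 5 belong to the inducible genes PSMB8, PSMB10, PSME1 and PSME2, and 1 to the assembly factor gene PSMG4. Capitals mark the motif, printed on the strand that reads GAAA:
PSMB8 (chr6:32844032-32844061, plus strand): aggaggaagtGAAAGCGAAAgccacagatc
PSMB10 (chr16:67936852-67936881, minus strand): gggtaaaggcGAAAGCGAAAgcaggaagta
PSME1 (chr14:24136189-24136218, minus strand): accgcgaaggGAAAGCGAAAgcggtagggc
PSME2 (chr14:24146619-24146648, minus strand): cctggggagtGAAAGCGAAAgcccgggcga
PSMG4 (chr6:3258904-3258933, plus strand): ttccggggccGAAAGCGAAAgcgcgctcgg

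Counted along the gene, the motif began 28 bases before the start in PSME2, 21 before it in PSMB10, 33 before it in PSMG4 and 4 before the inner of the 2 RefSeq starts of PSMB8. In PSME1 it began at position 6 of the transcript. No interferon element was found in the window of PSMB9. The whole stretch before the start of PSME2 (chr14:24146611-24146860, minus strand) is shown because this gene had the largest log2 change of the 48 tested genes:
PSME2: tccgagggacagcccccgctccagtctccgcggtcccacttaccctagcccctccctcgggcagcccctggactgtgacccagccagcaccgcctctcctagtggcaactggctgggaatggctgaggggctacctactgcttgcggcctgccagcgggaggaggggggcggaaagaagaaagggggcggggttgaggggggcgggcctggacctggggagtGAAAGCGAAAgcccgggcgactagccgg

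The antioxidant core was present in 17 of the 45 genes (37.8%), against 16.1% of all genes with a promoter and 19.7% of the tested ones. CCAAT was present in 22 (48.9%, against 39.7% and 43.2%) and the STAT site in 8 (17.8%, against 9.38% and 8.20%). A match is a description of letters and not evidence of binding. Of 30 matched genes that rose in the knockdown, 15 held CCAAT, 5 the STAT site and 5 the interferon element. The antioxidant core was held by 14 of the 30. The 6 of these with the smallest adjusted p are shown, with the core in capitals on the strand that reads TGACNNNGC:
PSME2 (chr14:24146767-24146795, minus strand): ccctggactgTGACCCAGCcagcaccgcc
PSMB3 (chr17:38752627-38752655, plus strand): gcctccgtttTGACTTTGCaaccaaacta
PSMC4 (chr19:39971182-39971210, minus strand): tcctccatagTGACCAAGCcggcctctgt
PSMA4 (chr15:78540650-78540678, plus strand): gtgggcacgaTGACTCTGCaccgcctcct
PSMG1 (chr21:39183616-39183644, minus strand): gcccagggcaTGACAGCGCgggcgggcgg
PSMD12 (chr17:67366724-67366752, minus strand): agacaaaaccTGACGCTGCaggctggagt

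Expression was read as FPKM, fragments per kilobase of transcript scaled to library depth, so levels of different genes below are per length. ARID1A was at 11.1 and 11.4 FPKM in control libraries and at 7.05 and 6.13 FPKM after knockdown (limma adjusted p = 0.00438; exact two-sided permutation p = 0.33, the smallest that 2 against 2 libraries can give). Steps between low values gave estimated totals of 69000000 to 76000000 fragments per library. Of 7 epithelial markers, KRT8, KRT18 and KRT19 rose 1.34-fold to 1.62-fold, and EPCAM fell from 312 FPKM in both controls to 147 and 141 FPKM after knockdown (limma adjusted p = 3.63e-04). CDH1 (24.0 to 25.6 FPKM) and CDX2 (10.9 to 14.8 FPKM) did not pass, and VIL1 was at 0.207 FPKM or less. All 12 leukocyte markers, of cells with a naturally high immunoproteasome, were under 1 FPKM in every library, and 5 of the 12 were at 0 in all 4. Their summed level was 1.11 to 1.37 FPKM in control libraries and 0.647 to 0.871 FPKM after knockdown. Of 5 fibroblast and 3 endothelial markers, 7 were under 1 FPKM in every library, and COL1A1 was at 4.81 and 3.58 against 5.89 and 6.15 FPKM.

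Most proteasome genes were slightly higher in the knockdown, and none was significantly lower. The mitochondrial share of summed FPKM moved with the groups, at 4.35% and 4.29% in the controls against 6.04% and 5.65% after knockdown, and its part in the result was not tested. Of the 51 genes, 48 had a mean of at least 1 FPKM and were tested with limma on log2(FPKM + 1). Of these, 35 rose, 0 fell and 13 did not pass a Benjamini-Hochberg adjusted p of 0.05. Across all 13605 tested features 37.1% were called, 18.2% higher and 18.9% lower. Among the 4813 features with a mean of at least 20 FPKM, closer to the level of these genes, 48.8% were called, 27.9% higher and 20.8% lower. In bulk RNA, fewer cells of a type and less RNA per cell cannot be told apart. The log2 change was above 0 for 45 of the 48, and its median was 0.24, against -0.003 over all tested features and 0.04 over those of at least 20 FPKM. The knockdown libraries lay above both controls for 43 of the 48 and below both for 2, where the shares over all tested features were 35.8% and 36.5%. Among features of at least 20 FPKM these shares were 45.7% and 33.5%. As a ratio of means the changes ran from 0.948-fold (PSMD9) to 1.52-fold (PSME2), with a median of 1.18-fold.

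**Figure D1:**
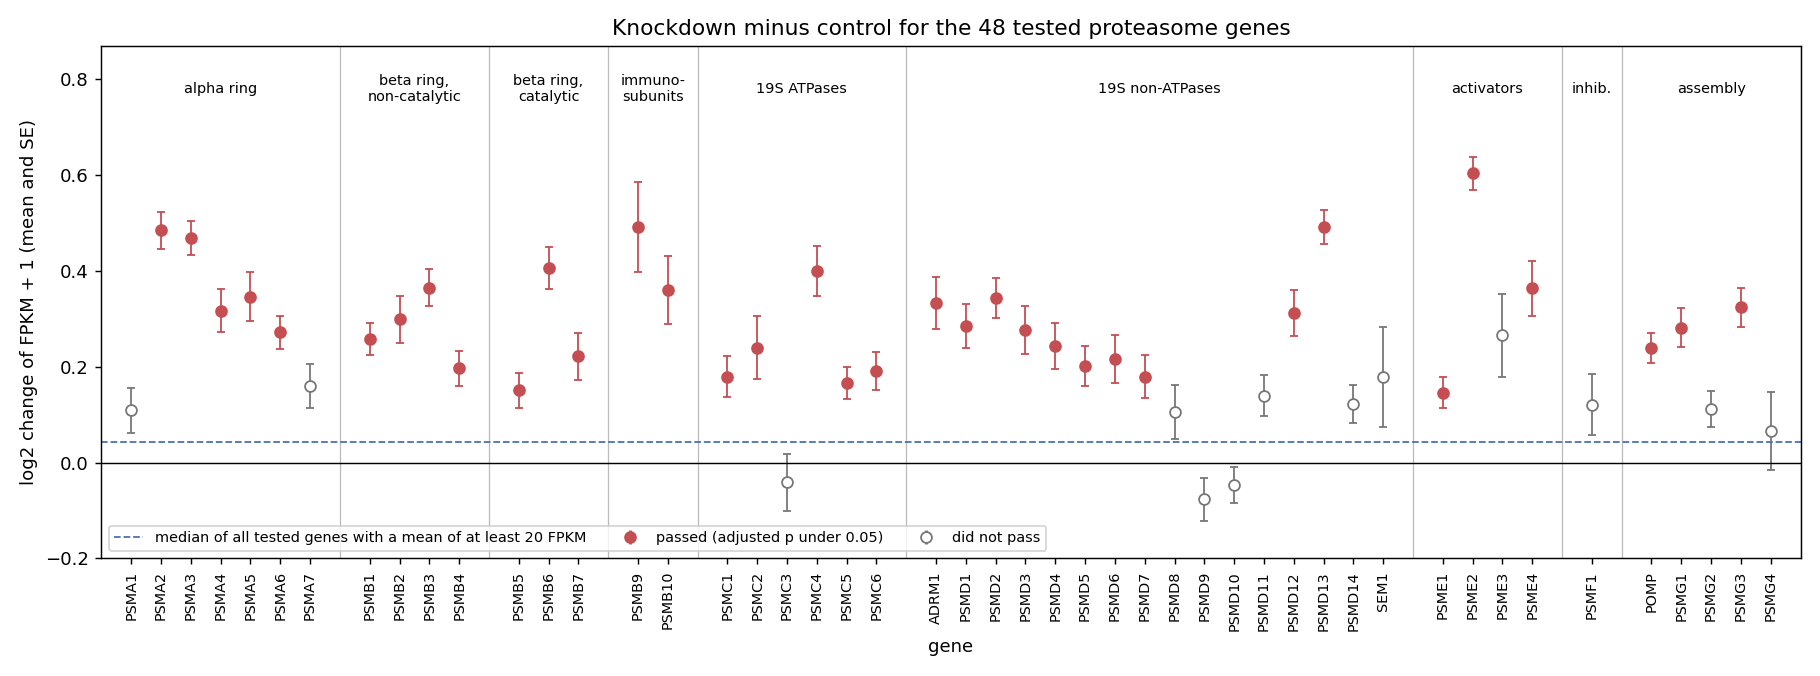
Each point is the log2 change of FPKM + 1 (vertical axis, knockdown minus control, 2 libraries each) of 1 tested gene (horizontal axis, grouped by role), with its standard error. Filled points passed the test, and the dashed line is the median of all tested genes with a mean of at least 20 FPKM. All but PSMC3, PSMD9 and PSMD10 lie above 0, and PSME2 is highest at 0.60.

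The number of calls depended on the libraries more than the direction did. It was 14 without control replicate 1 and 12 without control replicate 2 (8.17% and 7.78% of all tested features called higher), and 30 and 28 without knockdown replicate 1 and 2 (12.2% and 11.5%). None of the 48 fell in any of these fits. The calls of 9 genes held in all 4: PSMA2, PSMA3, PSMB3, PSMB6, PSMC4, PSMD2, PSMD13, PSME2 and PSMG3. The other 26 were each lost in at least 1 of them. Without control replicate 1 the lost calls (adjusted p 0.0557 to 0.141) were PSMA5, PSMA6, PSMB2, PSMB4, PSMB5, PSMB7, PSMB9, PSMB10, PSMC1, PSMC2, PSMC5, PSMC6, ADRM1, PSMD3 to PSMD7, PSME1, POMP and PSMG1. Without control replicate 2 (0.0530 to 0.177) they were PSMA4, PSMA5, PSMB1, PSMB4, PSMB5, PSMB7, PSMB9, PSMB10, PSMC1, PSMC2, PSMC5, PSMC6, ADRM1, PSMD1, PSMD3 to PSMD7, PSMD12, PSME1, PSME4 and POMP. Without knockdown replicate 1 (0.0524 to 0.144) they were PSMC1, PSMC2, PSMC5, PSMD5, PSMD6, PSMD7 and PSME1, and without knockdown replicate 2 (0.0501 to 0.0925) PSMB5, PSMC2, PSMC5, PSMC6, PSMD4 to PSMD7 and PSME1. With no filter on low values, where the adjustment ran over 29031 features, 22 of the 48 rose. Without a variance trend 27 rose, and the calls of PSMB5, PSMB7, PSMC1, PSMC2, PSMC5, PSMD6, PSMD7 and PSME1 were lost (adjusted p 0.0558 to 0.0847). Quantile normalization left 28, without PSMB4 (0.102), PSMB5, PSMC1, PSMC2, PSMC5, PSMD6 and PSMD7, and scaling to a common sum 31.

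The 20S core was high in all libraries and higher in the knockdown. All 14 of its standard subunit genes had both knockdown libraries above both controls, and 12 rose, with a median log2 change of 0.29. Among features of at least 20 FPKM, 45.7% had both knockdown libraries above both controls, and 27.9% were called higher. Their control means ran from 40.8 FPKM (PSMA5) to 324 FPKM (PSMA4), a 7.93-fold range among products that enter the particle in equal numbers. The sum over the 14 was 2398 and 2373 FPKM in control libraries and 2838 and 2934 FPKM after knockdown.

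In the alpha ring, which gates entry to the core, 5 of 7 genes rose, against 27.9% of features of at least 20 FPKM. PSMA2 (chromosome 7, 42916861 to 42932185) was at 74.8 and 77.7 FPKM in control libraries and 105.6 and 108.6 FPKM after knockdown, 1.40-fold higher (log2 change 0.48, SE 0.039, limma adjusted p = 0.00201). PSMA3 was at 132.9 and 131.2 FPKM against 179.9 and 186.3 FPKM, 1.39-fold higher (adjusted p = 0.00171). In both genes the gap between groups was far wider than the gap between replicates. PSMA4, PSMA5 and PSMA6 rose by 1.21-fold to 1.28-fold. The smallest change of the ring was that of PSMA1, at 130.3 and 127.9 FPKM against 144.4 and 134.3 FPKM (log2 change 0.11, adjusted p = 0.132). PSMA7 was at 229.9 and 229.8 FPKM against 247 and 267 FPKM (adjusted p = 0.0521), so its groups did not overlap but the knockdown libraries differed from each other.

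All 4 non-catalytic beta genes rose, against 27.9% of features of at least 20 FPKM. PSMB3 had the largest change, from 187 and 184 FPKM to 234 and 245 FPKM, 1.29-fold (log2 change 0.37, SE 0.038, adjusted p = 0.00377). PSMB4 had the smallest, from 269 and 277 FPKM to 309 and 318 FPKM, 1.15-fold (adjusted p = 0.0162). PSMB1 and PSMB2 rose 1.2-fold and 1.24-fold.

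The 3 standard catalytic genes also rose, though unequally. PSMB6, which cuts after acidic residues, went from 137.2 and 131.7 FPKM to 173.9 and 183.1 FPKM, 1.33-fold (log2 change 0.41, SE 0.044, adjusted p = 0.00397). PSMB7, which cuts after basic residues, went from 184 and 186 FPKM to 208 and 225 FPKM, 1.17-fold (adjusted p = 0.0248). PSMB5, the chymotrypsin-like subunit and the target of bortezomib, went from 177 and 173 FPKM to 191 and 198 FPKM, 1.11-fold (adjusted p = 0.0342). For each of the 3 both knockdown libraries lay above both controls, as they did for 45.7% of features of at least 20 FPKM. Of those features 27.9% were called higher.

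The inducible catalytic genes were far lower than their standard partners in every library. PSMB8 (chromosome 6, 32840717 to 32844679) was nearly silent, at 0.371 and 0.400 FPKM in control libraries and 0.789 and 0.608 FPKM after knockdown. Its mean went from 0.386 ± 0.0206 to 0.698 ± 0.128 FPKM (SD, n = 2), 1.81-fold, below the filter on low values and so not tested. With a filter of 0.1 FPKM it had a log2 change of 0.29 and a limma adjusted p of 0.0977. These values rest on an estimated 25.6 to 59.9 fragments per kb of transcript. PSMB8 also overlaps its antisense gene PSMB8-AS1 (0.146 to 0.286 FPKM) and the feature of PSMB9, and reads there cannot be told apart without a strand setting.

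PSMB9 (chromosome 6, 32844136 to 32859851) was at 11.4 and 12.4 FPKM in control libraries and 15.7 and 18.7 FPKM after knockdown, 1.45-fold higher (log2 change 0.49, SE 0.094, adjusted p = 0.0174). PSMB10 (chromosome 16, 67934506 to 67936864) was at 21.1 and 21.8 FPKM against 26.1 and 29.7 FPKM, 1.3-fold higher (log2 change 0.36, SE 0.072, adjusted p = 0.0196). In both genes the groups did not overlap, and the knockdown libraries differed from each other more than the controls did. Both calls were lost without either control (adjusted p for PSMB9 0.09 and 0.0628, for PSMB10 0.0988 and 0.0792). The leukocyte marker PTPRC was at 0 FPKM in 3 libraries and 0.0059 in 1. Whether leukocyte RNA had a part in these values was not tested. The feature of PSMB9 spans that of TAP1, which rose 1.28-fold, so reads of the pair could be mixed.

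**Figure D2:**
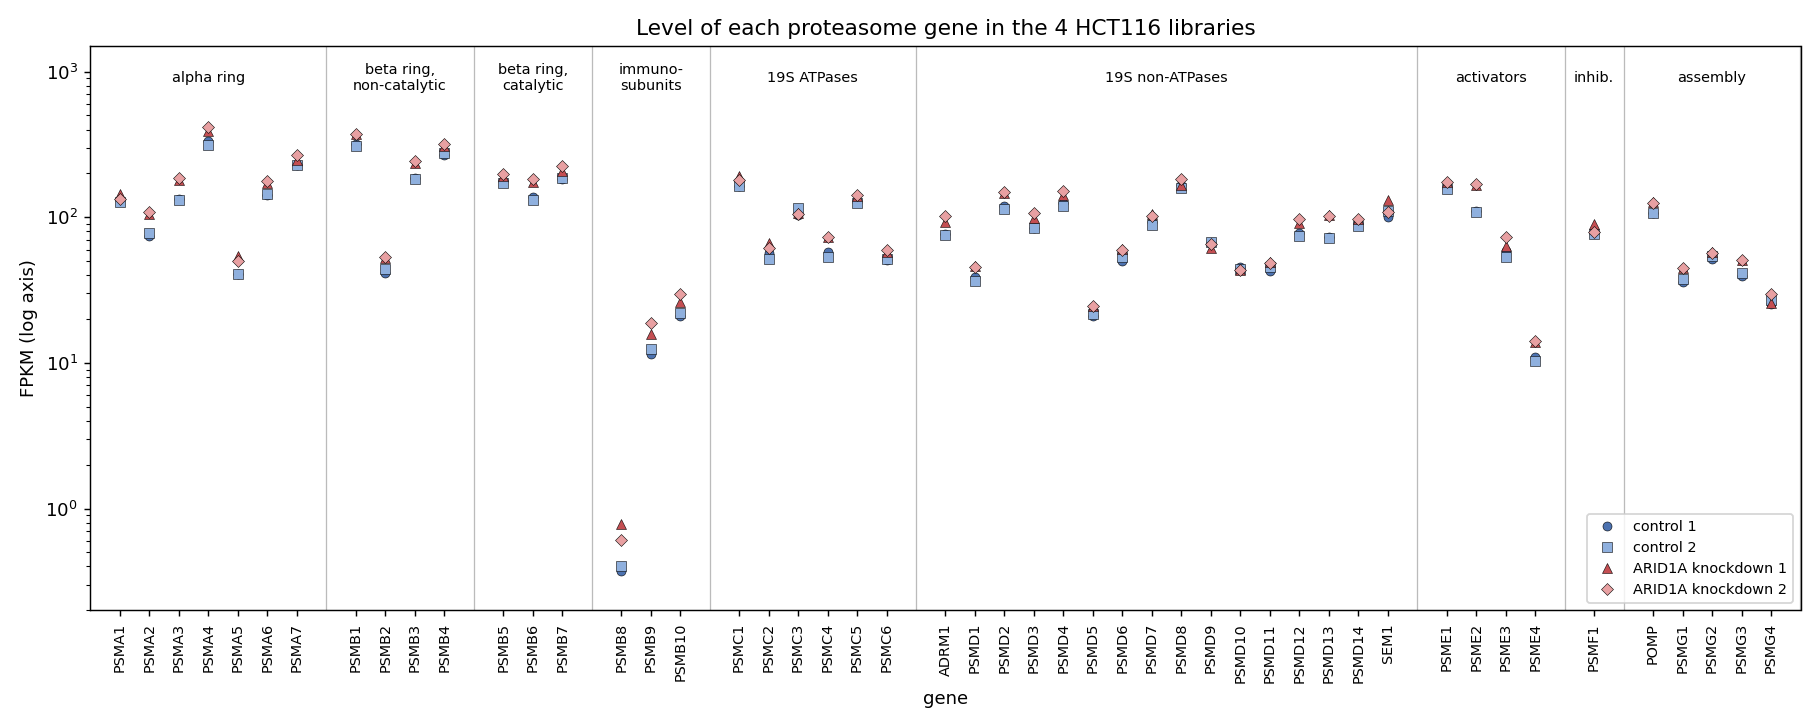
Each symbol is the FPKM (vertical log axis) of 1 gene (horizontal axis, grouped by role) in 1 library, blue for control and red for ARID1A knockdown. Standard core genes lie between 40.8 and 413 FPKM, PSMB9 and PSMB10 between 11.4 and 29.7, and PSMB8 below 1.

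Set against the partner each replaces, each inducible gene stayed a small fraction. PSMB9 was at 8.34% and 9.41% of the FPKM of PSMB6 in control libraries and at 9.05% and 10.2% after knockdown, groups that overlap (log2 difference 0.12, exact two-sided permutation p = 0.667, adjusted 0.667 over the 3 ratios). PSMB10 was at 11.5% and 11.8% of PSMB7 against 12.6% and 13.2% (log2 difference 0.15; exact p = 0.33, adjusted 0.5). PSMB8 was at 0.210% and 0.231% of PSMB5 against 0.414% and 0.307% (log2 difference 0.69; exact p = 0.33, adjusted 0.5). For 2 libraries against 2 this test cannot go below 0.33. With 1 FPKM added to each value the PSMB8 difference was 0.14. The 3 inducible genes together made up 6.20% and 6.59% of the summed FPKM of the 6 catalytic genes in control libraries and 6.94% and 7.49% after knockdown.

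**Figure D3:**
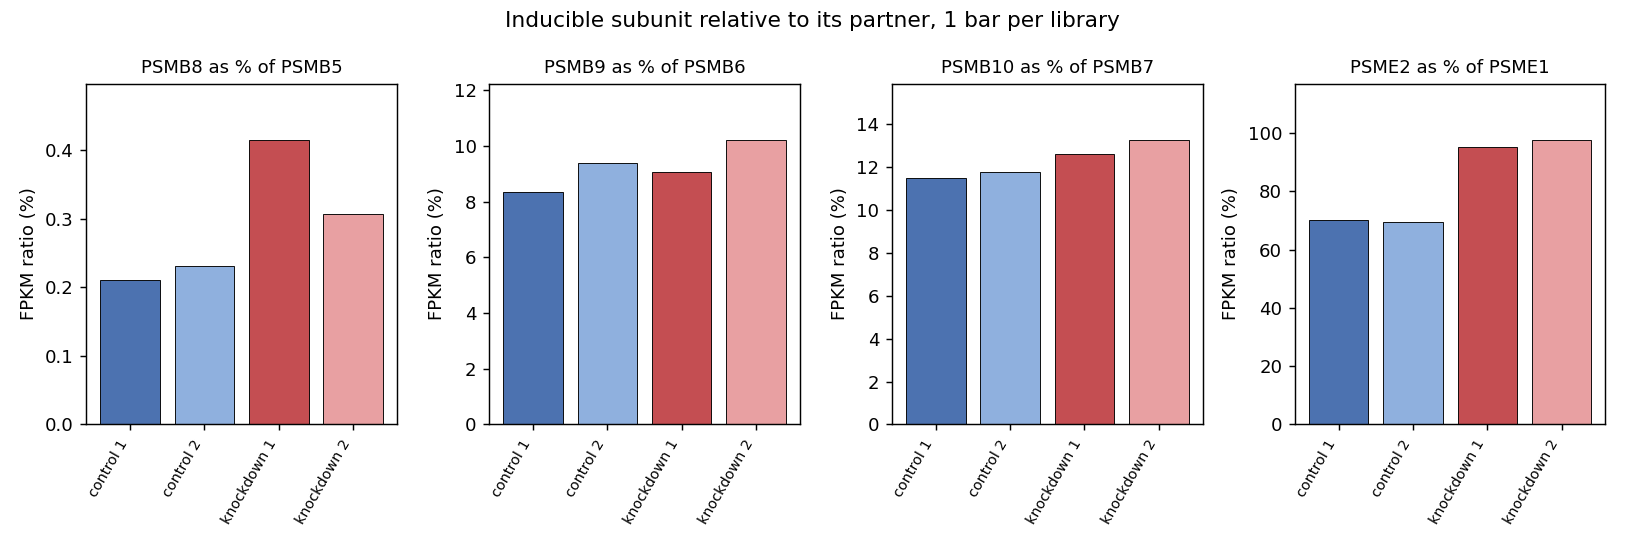
Bars give, for each of the 4 libraries (blue control, red ARID1A knockdown), the FPKM of an inducible subunit as a percent of its partner (vertical axes from 0, with a different scale in each panel). PSME2 goes from about 70% of PSME1 in both controls to over 95% in both knockdown libraries, while the PSMB9 to PSMB6 ratios of the groups overlap.

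The activator genes held the largest log2 change of the 48 tested genes. PSME2 (chromosome 14, 24143362 to 24147570), the PA28 beta subunit, was at 111 and 108 FPKM in control libraries and 165 and 169 FPKM after knockdown. It rose 1.52-fold (log2 change 0.60, SE 0.035, adjusted p = 9.9e-04). Its neighbour PSME1 (chromosome 14, 24136163 to 24138967), the PA28 alpha subunit, went from 158 and 155.5 FPKM to 173.6 and 173.4 FPKM, 1.11-fold (log2 change 0.15, SE 0.032, adjusted p = 0.0257). The call of PSME1 was also lost in a fit with no variance trend (0.0747) and after scaling to a common sum (0.0588).

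The subunit genes of the PA28 ring gained unequally. PSME2 was at 70.2% and 69.6% of the FPKM of PSME1 in control libraries and at 95.2% and 97.5% after knockdown. The log2 difference was 0.46, with replicate SDs of 0.0081 and 0.024 (exact two-sided permutation p = 0.33, the smallest possible). PSME2 overlaps RNF31, which was at 27.1 and 21.0 FPKM in control libraries and 31.2 and 37.2 FPKM after knockdown. The part of the overlap in either value was not tested.

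PSME4, the PA200 activator linked to histone degradation, was at 11 and 10.2 FPKM in control libraries and rose to 13.8 and 14.1 FPKM, 1.31-fold (adjusted p = 0.0106). It overlaps ACYP2, which went the other way, from 21.3 and 21.1 FPKM to 14 and 14.1 FPKM. PSME3, the nuclear PA28 gamma, was at 59.1 and 53.5 FPKM against 63.2 and 72.7 FPKM and did not pass (log2 change 0.27, SE 0.086, adjusted p = 0.0681). PSMF1, an inhibitor of the core also called PI31, was at 78.3 and 76.3 FPKM against 89.1 and 79.4 FPKM (adjusted p = 0.2).

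In the 19S particle 15 of 22 genes rose, against 27.9% of features of at least 20 FPKM, and 7 did not pass. The median log2 change of the 22 genes was 0.20. Their control means ran from 21.3 FPKM (PSMD5) to 164 FPKM (PSMC1). Split by place in the particle, a split made after the values were seen, 9 of 10 base genes rose (median 0.24), 5 of 9 lid genes (median 0.18) and 1 of 3 base assembly chaperone genes (median -0.048). The differences between these parts were not tested.

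Of the 6 ATPase genes, 5 rose, against 27.9% of features of at least 20 FPKM. PSMC4 (chromosome 19, 39971165 to 39981764) had the largest change, from 57.8 and 52.9 FPKM to 73.1 and 73.4 FPKM, 1.32-fold (log2 change 0.40, SE 0.053, adjusted p = 0.00642). PSMC3 was the ATPase gene that did not pass, at 103.9 and 115.7 FPKM in control libraries and 107.6 and 105.4 FPKM after knockdown (log2 change -0.041, adjusted p = 0.621). Both its knockdown libraries lay between its controls, and without control replicate 2 its change was 0.036. The other 4 ATPase genes, PSMC1, PSMC2, PSMC5 and PSMC6, rose by 1.12-fold to 1.18-fold; PSMC2 overlaps DNAJC2 and PSMC5 overlaps FTSJ3. Near-identical copies could share reads with PSMC1: the pseudogene PSMC1P1 was at 5.94 and 5.70 FPKM against 6.84 and 7.17 FPKM, beside 164.1 and 164.2 FPKM against 192.2 and 180.1 FPKM for PSMC1.

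Of the 16 non-ATPase genes, 10 rose, against 27.9% of features of at least 20 FPKM. PSMD13 (chromosome 11, 236966 to 252984), a lid subunit, was at 73.5 and 71.9 FPKM in control libraries and 103.7 and 101.6 FPKM after knockdown, 1.41-fold higher (log2 change 0.49, SE 0.036, adjusted p = 0.00151). PSMD2, a base scaffold that binds ubiquitin-like domains, went from 119.6 and 113.3 FPKM to 146.9 and 149.1 FPKM, 1.27-fold (adjusted p = 0.00511). The ubiquitin receptor gene ADRM1 went from 77.2 and 76.0 FPKM to 92.4 and 101.3 FPKM, 1.26-fold (adjusted p = 0.0114). Another ubiquitin receptor gene, PSMD4, rose 1.19-fold (adjusted p = 0.0186). Of the remaining base and lid genes PSMD1, PSMD3, PSMD6, PSMD7 and PSMD12 rose by 1.13-fold to 1.25-fold. PSMD8 (1.08-fold, adjusted p = 0.210) and PSMD11 (1.10-fold, 0.0603) did not pass. PSMD14, which removes ubiquitin chains, was at 91.1 and 86.7 FPKM against 96.5 and 97.2 FPKM and did not pass (adjusted p = 0.0671). SEM1, the smallest lid subunit, was at 99.9 and 109.9 FPKM against 130.8 and 107.8 FPKM (adjusted p = 0.240), with the knockdown libraries on either side of control replicate 2.

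PSMD9 and PSMD10 stood on the other side of 0. They encode chaperones that help to build the ATPase ring and leave before the particle is complete. PSMD9 was at 66.3 and 67.3 FPKM in control libraries and 61.4 and 65.2 FPKM after knockdown (log2 change -0.077, SE 0.044, adjusted p = 0.233). PSMD10 was at 45.7 and 44.4 FPKM against 43.4 and 43.6 FPKM (log2 change -0.048, adjusted p = 0.366). In both genes the knockdown libraries were below both controls by a margin within what the test allows for replicates. PSMD5, the other such chaperone gene in the set, went from 21.0 and 21.5 FPKM to 24.7 and 24.5 FPKM, 1.16-fold (adjusted p = 0.0217), and overlaps CUTALP (4.04 to 5.79 FPKM).

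Core assembly factors gave 3 rises among 5 genes, against 27.9% of features of at least 20 FPKM called higher. POMP, which guides beta ring assembly and is then the first substrate of the new core, was at 106.3 and 106.6 FPKM in control libraries and 126.3 and 125.4 FPKM after knockdown, 1.18-fold higher (log2 change 0.24, SE 0.032, adjusted p = 0.00675). PSMG1 and PSMG2 form one chaperone dimer. PSMG1 went from 35.9 and 37.4 FPKM to 44.7 and 44.8 FPKM (adjusted p = 0.00823), whereas PSMG2 was at 51.9 and 53.8 FPKM against 57.4 and 56.9 FPKM (adjusted p = 0.0787). PSMG3 and PSMG4 form the other. PSMG3 went from 39.6 and 41.4 FPKM to 51.1 and 50.8 FPKM, 1.26-fold (adjusted p = 0.00588), and PSMG4 was at 25.5 and 27.2 FPKM against 25.7 and 29.7 FPKM (adjusted p = 0.563; log2 change 0.065, and -0.036 without knockdown replicate 2). In each dimer 1 gene passed and the other did not, and the difference between partners was not tested. Other overlapping neighbours at 0.1 or more of a gene's FPKM were LAMA5 for ADRM1, EMC9 for PSME1, BECN1 for PSME3, SPIRE1 and CEP76 for PSMG2, and SLC22A23 and TUBB2B for PSMG4.

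The tissue-specific core genes were near 0. PSMA8, an alpha subunit of germ cells, was at 0 FPKM in 3 libraries and 0.010 FPKM in knockdown replicate 2. PSMB11, the thymus subunit, was at 0 FPKM in 3 libraries and 0.018 FPKM in control replicate 2. Of 35 pseudogene and antisense features named after these genes, 30 stayed under 1 FPKM in every library. The pseudogene PSMC1P5 was at 22.0 FPKM in control replicate 2 and at 0 FPKM in every other library, and did not pass (limma adjusted p = 0.280). Of the 4 tested, PSMC1P1 rose (adjusted p = 0.0433), a call lost in each fit without 1 library (0.0995 to 0.164).

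Genes that control or assist the proteasome are given here beside the shares over all tested features. Among 11 genes of the NFE2L1 axis, 1 rose and 4 fell (median log2 change -0.092), where 37.1% of all tested features were called, 18.2% higher and 18.9% lower. NFE2L1 itself, an activator of proteasome genes, was at 96.9 and 95.6 FPKM in control libraries and fell to 74.7 and 70.5 FPKM (log2 change -0.40, SE 0.043, adjusted p = 0.00389). Both knockdown libraries were below both controls, and the call held without any 1 library. NFE2L2, its relative in the antioxidant response, fell from 77.6 and 78.5 FPKM to 64.0 and 63.1 FPKM (adjusted p = 0.00493). AKIRIN2, needed to bring proteasomes into the nucleus, fell from 27.4 and 29.4 FPKM to 23.2 and 24.6 FPKM (adjusted p = 0.0303; 0.0517 to 0.134 without any 1 library). NGLY1, the glycanase that processes NFE2L1, rose from 12.3 and 12.1 FPKM to 15.0 and 13.9 FPKM (adjusted p = 0.0333). Leaving out either control (0.114 and 0.132) or knockdown replicate 1 (0.119) ended that call.

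Of 17 proteins that associate with the particle, 3 genes rose and 4 fell (median log2 change 0.034), shares near the 18.2% and 18.9% of all tested features. PAAF1, which binds the ATPase PSMC5 and restrains joining of the 19S particle to the core, had the largest fall. It was at 8.06 and 7.39 FPKM in control libraries and 3.24 and 3.69 FPKM after knockdown, 2.23-fold lower (log2 change -0.97, SE 0.084, adjusted p = 0.00236). ZFAND5, an activator of the 26S particle, fell from 103.9 and 102.9 FPKM to 73.9 and 77.9 FPKM (adjusted p = 0.00271). ECPAS, which tethers the 19S particle to the core, fell from 16.8 and 14.9 FPKM to 13.0 and 11.9 FPKM (adjusted p = 0.0336; 0.0511 to 0.123 without any 1 library). The shuttle factor gene RAD23B, by contrast, rose from 81.4 and 79.5 FPKM to 104.9 and 103.4 FPKM (adjusted p = 0.00287). The calls of PAAF1, ZFAND5 and RAD23B held without any 1 library.

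The p97 unfoldase, which hands substrates to the proteasome, had 3 of 10 genes higher and 0 lower, near the 27.9% called higher among features of at least 20 FPKM. They were the ATPase VCP (52.9 and 54.0 FPKM to 63.7 and 61.9 FPKM, adjusted p = 0.0117) and both parts of its main cofactor, UFD1 (64.8 and 74.7 FPKM to 94.6 and 109.1 FPKM, 0.0153) and NPLOC4 (48.9 and 47.6 FPKM to 58.8 and 60.5 FPKM, 0.00631). Without control replicate 1 the calls of VCP (0.0782) and UFD1 (0.0703) were lost, and without control replicate 2 those of VCP (0.0642) and NPLOC4 (0.0521). Of 6 genes for ubiquitin and its activating enzymes, 2 rose and 1 fell, against 18.2% and 18.9% of all tested features. RPS27A, a ubiquitin fusion gene, fell from 1684 and 1784 FPKM to 1537 and 1516 FPKM (adjusted p = 0.0299), and UBA1, the main activating enzyme, rose from 88.1 and 84.4 FPKM to 96.4 and 97.8 FPKM (0.0286). Both calls were lost in each fit without 1 library (0.0693 to 0.183 for RPS27A and 0.0707 to 0.150 for UBA1).

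Genes of the interferon and class I pathway that accompany the immunoproteasome rose in 5 of 8 tested cases (median log2 change 0.31), against 18.2% of all tested features and 27.9% of those of at least 20 FPKM. IRF1, a direct activator of PSMB9, was at 18.4 and 18 FPKM against 18 and 18.1 FPKM (adjusted p = 0.871). NLRC5, the class I transactivator, was at 2.32 and 3.01 FPKM against 3.52 and 3.39 FPKM (adjusted p = 0.119). The peptide transporter genes TAP1 (26.5 and 26.9 FPKM to 34.2 and 34.3 FPKM, adjusted p = 0.00427) and TAP2 (14.1 and 12.1 FPKM to 20.3 and 20.8 FPKM, 0.00629) lie beside PSMB8 and PSMB9 on chromosome 6. ERAP1, a peptide-trimming enzyme, rose from 2.84 and 2.79 FPKM to 3.70 and 3.80 FPKM (0.0301; 0.0887 to 0.111 without any 1 library). The calls of TAP1 and TAP2 held without any 1 library.

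The COP9 signalosome, whose subunits are related to those of the 19S lid, gave a comparison complex. Of its 10 genes 4 rose and 0 fell (median log2 change 0.14), against 5 of 9 lid genes and 27.9% of features of at least 20 FPKM, and the difference between the complexes was not tested. COPS7A rose from 28.1 and 30.2 FPKM to 42.1 and 43.5 FPKM (adjusted p = 0.00295), GPS1 from 61.5 and 61.2 FPKM to 71.8 and 80.6 FPKM (0.0209), COPS2 from 73.4 and 73.6 FPKM to 86.9 and 87.4 FPKM (0.00712) and COPS7B from 22.2 and 22.1 FPKM to 25.7 and 25.0 FPKM (0.0253). The call of COPS7A held without any 1 library. Without control replicate 1 or 2 those of GPS1 (0.0972 and 0.1), COPS2 (0.0588 and 0.0574) and COPS7B (0.107 and 0.113) were lost, and that of COPS7B also without knockdown replicate 1 (0.0924) or 2 (0.0609).

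**Figure D4:**
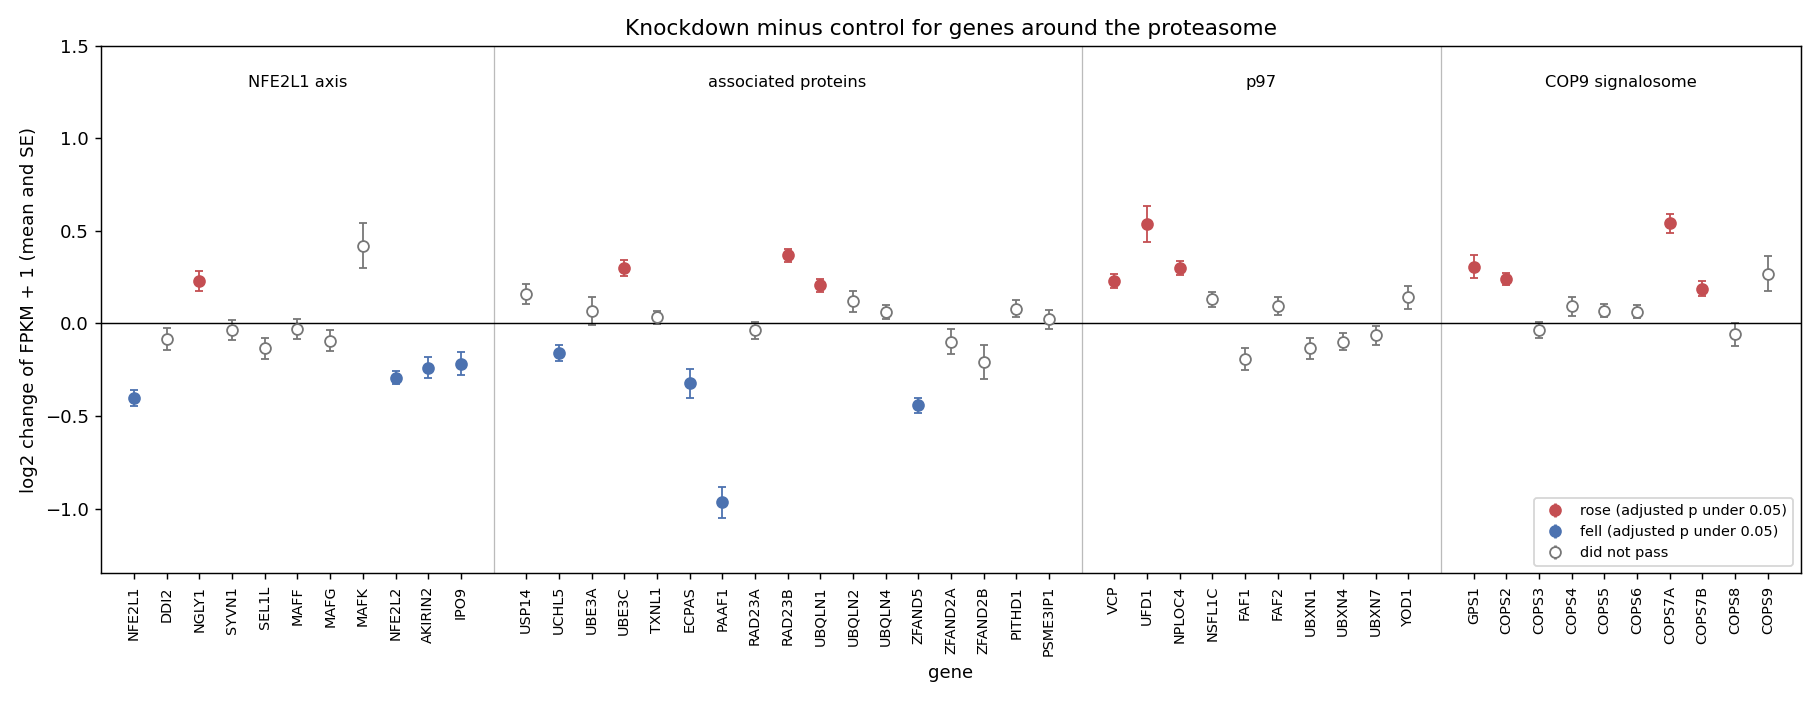
Each point is the log2 change of FPKM + 1 (vertical axis, knockdown minus control, 2 libraries each) with its standard error for 1 tested gene of the NFE2L1 axis, the associated proteins, p97 or the COP9 signalosome (horizontal axis). Red points rose, blue points fell and open points did not pass. NFE2L1 (-0.40) and PAAF1 (-0.97) lie below 0, and UFD1 and COPS7A are highest at 0.54.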

How the data were processed

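HCT116 RNA was sequenced in 4 libraries, prepared with NEBNext Ultra reagents, per the labels' protocols. The authors deposited FPKM values, 1 table for each library, per the file headers. The submitters' processing notes name STAR, Cufflinks and GRCh38; versions, annotation, filters and strand setting: not given in the sources used here. Each table held 60811 rows; 45 second copies of pseudoautosomal genes were dropped and 2347 values under 1e-09 set to 0. Gene positions refer to GRCh38 and count from 1.

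FPKM values are not counts, so knockdown minus control was fitted with limma 3.58.1 (R 4.3.3; eBayes with a trend, prior 2.79 degrees of freedom) on log2(FPKM + 1). Features needed a mean of at least 1 FPKM, and a Benjamini-Hochberg adjusted p of 0.05 over all of them was the threshold. This scale understates changes of low genes. Fragment totals were estimated from genes with 1 transcript in GENCODE 29, where 83.4% to 86.3% of low values were whole within 0.1 fragment.

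The genes and lists were chosen with earlier results of these data known. Any gene of the set could be named, with library values for the catalytic, inducible, activator and assembly genes, ADRM1, SEM1 and the extremes of each ring or class. Of each other list up to 4 called genes by absolute log2 change were named, with NFE2L1, IRF1, NLRC5, TAP1 and ARID1A; some genes this rule names are not reported here. Library values of PSMA3, PSMA7, PSMC1, PSMD2, PSMD5, PSMD10 and PSMD14 were added after they were seen, and other genes because they overlap one of the set or mark a cell type. Alternatives were other pseudocounts, filters and scalings, no variance trend, a replicate block and leaving out each library.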

Additional observations from a re-analysis of the deposited data

How the results depend on the processing

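All 48 tested members kept their direction under every alternative except 2: PSMC3 had a log2 change of -0.12 to 0.036 without 1 library, above 0 without control replicate 2, and PSMG4 one of -0.036 without knockdown replicate 2. With no filter on low values, 2786 features were called instead of 5046, and 22 proteasome genes rose instead of 35; PSMB9 (0.49, adjusted p = 0.0834) and PSMB10 (0.36, 0.0835) were no longer called, and the lists kept 2 calls in the NFE2L1 axis, 1 in ubiquitin and E1 and 0 in the pseudogenes. A filter of 0.1 FPKM left 0 pseudogene calls. Quantile normalization and scaling to a common sum gave median log2 changes of 0.19 and 0.21 for all proteasome genes, 0.21 and 0.26 for the 20S core, 0.17 and 0.17 for the 19S particle, and 5 and 5 calls for p97. The scaling also left 0 pseudogene calls and PSME1 at 0.12 (adjusted p = 0.0588). Proteasome genes called higher numbered 28 under quantile normalization, 31 under the scaling and 27 without a variance trend. Without that trend the NFE2L1 axis had 3 calls, ubiquitin 1, and PSME1 (0.15) an adjusted p of 0.0747. On FPKM + 1 the PSMB8 to PSMB5 difference was 0.14. Leaving out 1 library at a time gave 2146 to 3368 calls over all features, 12 to 30 proteasome genes higher, a median of 0.24 to 0.27 for all of them and of 0.27 to 0.29 for the core. The log2 change of PSMB9 was then 0.38 to 0.61, of PSMB10 0.27 to 0.45 and of PSME1 0.13 to 0.16. Calls per list were 2 to 3 (NFE2L1 axis), 3 to 7 (associated proteins), 1 to 4 (p97), 0 to 1 (ubiquitin), 3 to 4 (interferon), 1 to 3 (COP9) and 0 to 1 (pseudogenes). Fewer samples or more features enter these fits; for the scalings the cause was not tested. An arm with 1 library was assumed to vary like the other. FPKM fixes no depth, and PSMB8 rests on few fragments.

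No pairing by replicate number was visible in the values: deviations of same-numbered libraries had a correlation of -0.0099 over 13605 features. Whether same-numbered libraries were prepared together is not stated, and this value cannot show it. With the replicate block 4126 features were called and 30 proteasome genes rose. The calls lost were PSMB5 (adjusted p = 0.0745), PSMC1 (0.0544), PSMC5 (0.0508), PSMD6 (0.0527) and PSME1 (log2 change 0.15, 0.0633), and the lists kept 1 ubiquitin and 0 pseudogene calls.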
